A study of Drosophila melanogaster with 27 samples.

Results

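10 genes that drive or restrain cell division and growth were examined in *brat*-null third-instar larval brains of *Drosophila melanogaster*, out of 13968 protein-coding genes annotated on BDGP6. They were chosen by name and located by their coordinates. Each gene was read over its body and 5000 bp on each side, which gave 214.503 kb in all. The list holds the cyclin genes *CycE*, *CycA*, *CycB* and *CycD*, the kinase gene *Cdk1*, the phosphatase gene *stg* (string), the inhibitors *dap* (dacapo) and *fzr* (fizzy-related), and the growth and transcription genes *E2f1* and *Myc*. The comparison of interest was between the regulated cyclin genes with *stg* (5 genes) and the inhibitor *dap*.

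Cyclins activate their kinases at set points of the cell cycle, Cyclin D and Cyclin E in G1 and at entry into S phase, Cyclin A and Cyclin B towards mitosis. Cdk1 is the mitotic kinase, and String, the fly Cdc25, removes the phosphates that keep it inactive. Dacapo inhibits Cyclin E with its kinase, Fizzy-related directs the anaphase-promoting complex to the mitotic cyclins, E2f1 switches on genes of S phase, and Myc drives growth. In the larval brain, neuroblasts divide repeatedly while their progeny leave the cycle, and *brat* mutant brains fill with type II neuroblasts.

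The measurements were CUT&RUN profiles, in which an antibody tethers a nuclease to the chromatin where its target sits and the released DNA is sequenced. All 27 samples came from *brat*-null brains, with the allele brat11 over the deficiency Df(2L)Exel8040. The 21 control samples also carried fruC::myc, a Myc-tagged form of the FruC isoform of the transcription factor Fruitless, and the 6 *fruC*-null samples carried fruC-DelC over fruAj96U3. Control brains were profiled with antibodies to the Myc epitope, to all Fru isoforms (FruCOM), to Su(H), the DNA-binding partner of Notch, to Trl, the GAGA factor, and to Su(z)12 and Caf-1, subunits of Polycomb repressive complex 2. Every such antibody was used in 2 replicates, and each sample pooled 50 brains. H3K9me3 was profiled in control brains alone, and H3K27ac, H3K4me3 and H3K27me3 in control and *fruC*-null brains, in 2 replicates of 25 pooled brains. The brains are whole tissue, so a peak does not show which cell type carried it. The Myc antibody reads the epitope on FruC::Myc and is unrelated to peaks at the gene *Myc*.

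On BDGP6 the genes lie as follows. *CycE* (FBgn0010382) spans chromosome 2L from 15727581 to 15748150 on the minus strand, and *Cdk1* (FBgn0004106) spans 2L from 10384739 to 10386262, minus. *CycA* (FBgn0000404) spans 3L from 11826719 to 11833578, minus. *CycB* (FBgn0000405) spans 2R from 22803521 to 22806948, minus, and *dap* (FBgn0010316) spans 2R from 9712321 to 9716256, plus. *CycD* (FBgn0010315) spans X from 15906822 to 15909676, minus, *fzr* (FBgn0262699) X from 4667290 to 4679537, minus, and *Myc* (FBgn0262656) X from 3373159 to 3391697, plus. *stg* (FBgn0003525) spans 3R from 29251826 to 29255800, minus, and *E2f1* (FBgn0011766) 3R from 21620304 to 21660871, minus. The genome is compact here, and the windows of 9 of the 10 genes hold the start site of another gene.

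The deposited peak lists give MACS2 values for each replicate. The −log10 Q-value states how strongly a peak stands above its local background and grows with read depth, and the fold enrichment is the height at the summit over that background. The lists hold no read totals, so depth is unknown. For FruC::Myc, replicate 1 had 15563 peaks and replicate 2 had 5174, and the other factor lists held between 513 and 4201. Values are therefore given for each replicate on its own. With 2 replicates and no counts, no test between genes was possible, and comparisons are descriptions. Of 16 marker genes of brain and other cell types, 11 carried a FruC::Myc region with a −log10 Q-value above 100, against 13.5% of all genes. These included the neuroblast genes *dpn* and *klu* and also the neuronal gene *elav* and the muscle regulator *Mef2*. The neuroblast gene *mira* (highest replicate 1 value 96.5), the neuronal *brp* (31.6), the glial *repo* (48.8) and the fat body *Lsp2* (95.4) had no such region. *Mhc*, a muscle structural gene, had no FruC::Myc peak in either replicate. In the windows, 76 FruC::Myc regions had a MACS2 score above 100, which is a −log10 Q-value of 10, and 26 of them lay nearest to the start site of another gene. *dap* and *Myc* had no such region.

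The sequences at the summits of 6 FruC::Myc peaks are shown as examples with and without GAGAG, the core of the word that Trl binds. The split holds for the bases shown, and a wider window can hold the word where these do not. Each line gives the 101 bases centred on the replicate 1 summit, 5′ to 3′ on the plus strand of BDGP6 (RefSeq's copy of the same assembly), with GAGAG or its reverse complement CTCTC in capitals.
*CycE*, internal promoter, chr2L:15731866-15731966: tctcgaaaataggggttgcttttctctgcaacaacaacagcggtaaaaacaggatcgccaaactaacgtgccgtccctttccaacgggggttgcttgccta
*CycE*, intron, chr2L:15745688-15745788: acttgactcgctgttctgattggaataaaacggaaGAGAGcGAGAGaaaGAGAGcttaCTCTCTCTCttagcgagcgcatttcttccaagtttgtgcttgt
*stg*, upstream, chr3R:29257921-29258021: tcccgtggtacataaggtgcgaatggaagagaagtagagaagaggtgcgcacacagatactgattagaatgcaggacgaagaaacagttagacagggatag
*fzr*, intron, chrX:4678964-4679064: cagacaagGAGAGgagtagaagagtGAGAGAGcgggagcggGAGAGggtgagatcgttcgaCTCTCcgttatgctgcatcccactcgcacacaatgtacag
*E2f1*, internal promoter, chr3R:21638752-21638852: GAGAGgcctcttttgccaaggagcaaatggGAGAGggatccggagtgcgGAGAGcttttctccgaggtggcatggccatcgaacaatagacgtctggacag
*Myc*, upstream, chrX:3369484-3369584: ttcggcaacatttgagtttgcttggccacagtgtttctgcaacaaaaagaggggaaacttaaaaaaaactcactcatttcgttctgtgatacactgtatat

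Counted with overlaps, the *CycE* intron window holds 6 matches, the *fzr* intron window 5 and the *E2f1* window 3. The *CycE* internal promoter, the *stg* upstream and the *Myc* upstream windows hold none. Trl peaks lay in the regions of these last windows, at *Myc* in replicate 1 alone, and in none of the shown regions with matches. This holds for the examples shown and not for all peaks. The summit windows of the *dap* promoter, the *dap* intron and the more distal *dap* promoter peak hold 2, 1 and 7 matches. Trl had 7.60 in replicate 1 at the first, 2.96 in replicate 2 at the second and no peak at the third. The upstream *fzr* window holds 1 match, with Trl at 7.50 in replicate 2. The *CycA* 5′ UTR and *stg* promoter windows hold 1 match each, and their regions had no Trl peak.

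FruC::Myc peaks lay at all 10 genes in replicate 1, where 77.2% of all protein-coding genes had one, and at 9 of 10 in replicate 2, where 39.6% of all genes had one. *Cdk1* was the gene without a replicate 2 peak. The member windows are longer than usual, with a median of 15.4 kb against 12.2 kb over all genes. Per length, they held 3.96 peaks per 10 kb in replicate 1 and 2.00 in replicate 2, against 1.21 and 0.397 per 10 kb over all gene windows. Of the 43 replicate 2 peaks in the windows, 42 overlapped a replicate 1 peak, and 41 of the 85 replicate 1 peaks overlapped one of replicate 2. The summits of the 42 pairs lay a median of 23 bp apart, and 31 pairs lay within 50 bp of each other. At these genes replicate 2 thus listed a subset of the replicate 1 positions, with 1 exception.

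**Figure D1:**
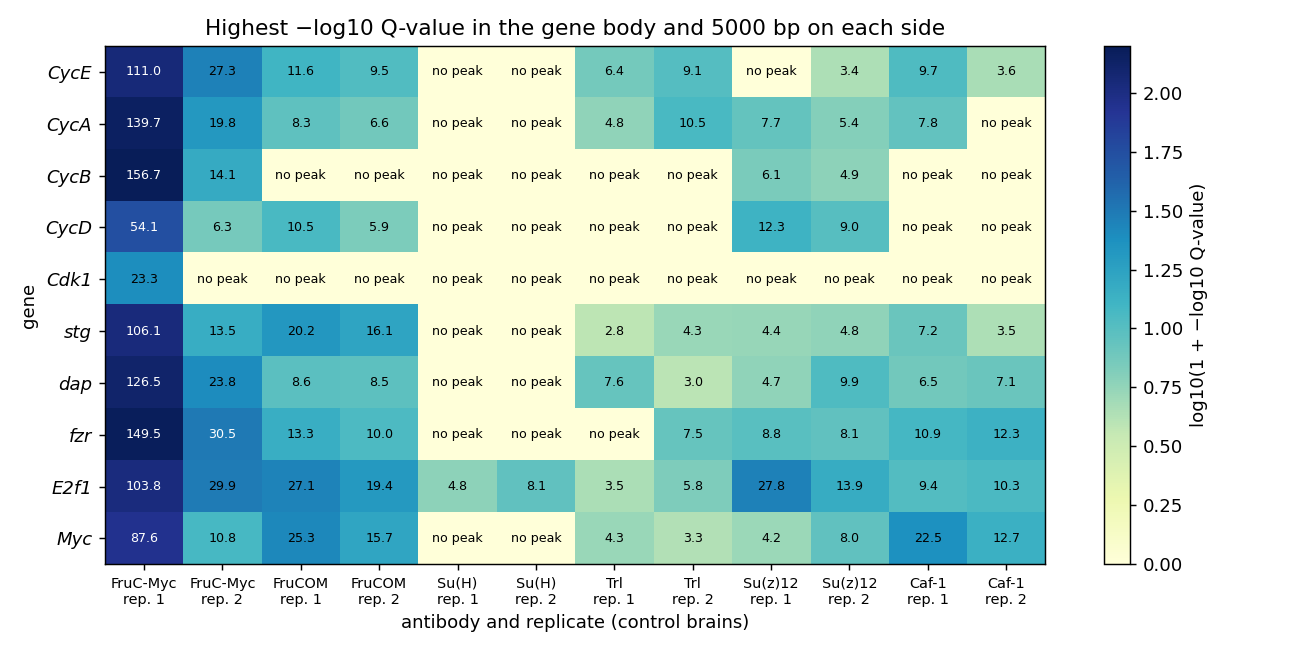
Highest −log10 Q-value of any peak in the body and 5000 bp on each side of each gene (rows), in each of the 12 factor lists (columns, 2 replicates per antibody, control brains). Colour follows log10(1 + value) and the number in each cell is the value. The FruC::Myc replicate 1 column runs from 23.3 at *Cdk1* to 156.7 at *CycB*, and Su(H) has values at *E2f1* alone.

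The grid of highest Q-values by gene and antibody shows how the genes differ. In FruC::Myc replicate 1 the order from the top was *CycB*, *fzr*, *CycA*, *dap*, *CycE*, *stg*, *E2f1*, *Myc*, *CycD* and *Cdk1*. In replicate 2 it was *fzr*, *E2f1*, *CycE*, *dap*, *CycA*, *CycB*, *stg*, *Myc* and *CycD*. *dap*, *Myc* and *CycD* kept ranks 4, 8 and 9 in both replicates, whereas *CycB* moved from rank 1 to rank 6 and *E2f1* from rank 7 to rank 2. Most neighbours in either order therefore cannot be separated by 2 replicates. The highest −log10 Q-value was 3.47 to 11.2 times as large in replicate 1 as in replicate 2 over the 9 genes with both, while the highest fold enrichment differed less, with ratios of 0.768 to 1.61 and a median of 1.07.

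The study's methods kept Fru peaks above a −log10 Q-value of 100. The MACS2 score in the lists is 10 times the −log10 Q-value. Results are given at a −log10 Q-value above 100 and at a score above 100, since the unfiltered lists do not name the column used. The paper's count of FruC-bound regions lies far above the 1221 regions of the first threshold and nearer to the 11336 of the second. By size, the second threshold is thus the closer to the study's set. The choice of threshold changes how many genes and regions pass. At the first threshold, merged over replicates and with H3K9me3 regions removed, such regions numbered 1221 in the genome, and 9 of them lay in the windows of 7 of the 10 genes, *CycE*, *CycA*, *CycB*, *stg*, *dap*, *fzr* and *E2f1*. Of all genes, 13.5% had such a region. *CycD*, *Cdk1* and *Myc* had none. All 9 regions passed through replicate 1: without it no member had a peak above 100 and the count was 0, although each of the 9 overlapped a weaker peak in replicate 2. The strongest values just outside the threshold were 95.2 at the *stg* promoter, 93.0 in the *dap* intron and 89.4 in the *CycA* intron, and the weakest just inside were 102.9 at *fzr* and 103.6 and 103.8 at *E2f1*. At the second threshold, a score above 100, regions numbered 11336 in the genome and 76 in the windows, and all 10 genes had one, as did 71.2% of all genes.

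**Figure D2:**
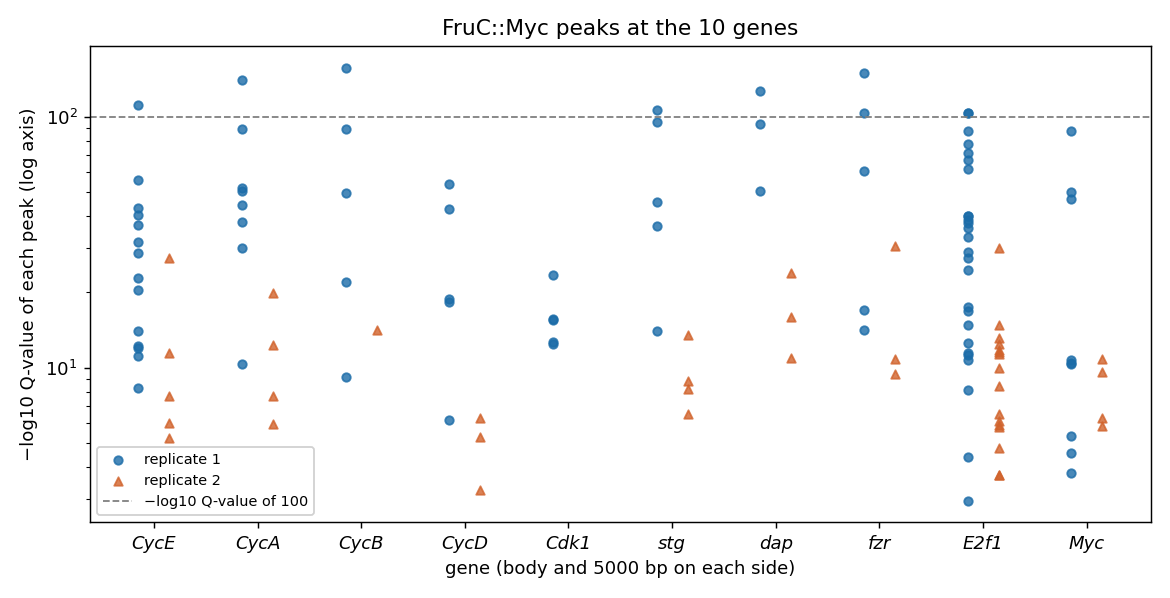
−log10 Q-value (log axis) of every FruC::Myc peak at each gene, with circles for replicate 1 and triangles for replicate 2. The dashed line marks 100, which 9 replicate 1 peaks at 7 genes exceed and no replicate 2 peak reaches.

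The plot of every FruC::Myc peak shows that *E2f1* and *CycE* carry many peaks of moderate strength, 26 and 14 in replicate 1, and that *dap* carries 3.

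Among the cyclin genes, the strongest *CycE* peak did not lie at the first start site. Cyclin E drives entry into S phase, and its gene has 3 annotated start sites. The peak at an internal promoter, 132 bp before the last of these and 16.2 kb into the gene, had −log10 Q-values of 111.0 in replicate 1 and 27.3 in replicate 2, with FruCOM at 11.6 and 9.53. The same region held Trl peaks (6.37 and 9.13), Caf-1 peaks (9.74 and 3.62) and a Su(z)12 peak in replicate 2 alone (3.42). The peak over the 5′ end of the gene had 40.5 in replicate 1 and no counterpart in replicate 2. *CycE* is thus marked by FruC::Myc most strongly at an internal start site, in both replicates and with both antibodies to Fru.

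The highest *CycA* peak lay in the 5′ UTR, 392 bp past the start site, with 139.7 and 12.3. Cyclin A is needed for mitosis. In replicate 2 the highest value was instead 19.8, in the intron 816 bp past the start, where replicate 1 had 89.4. The 5′ UTR region had FruCOM at 8.30 and 6.61, Su(z)12 at 4.32 and 5.35, and Caf-1 at 7.81 in replicate 1 alone. The intron region 816 bp past the start had Su(z)12 at 7.74 in replicate 1 alone, the highest Su(z)12 value at *CycA*. FruCOM had 5.61 there in replicate 2 alone. The highest *CycA* Trl peaks, 4.77 and 10.5, lay more than 10 kb downstream of its start, at the promoter of *RpL10Ab* and its neighbours. A further Trl peak (6.27, replicate 2 alone) lay within the gene, in an intron 2220 bp past the start and nearest to *CG7264*. FruC::Myc had 50.5 and 7.71 in that region.

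*CycB*, the gene of a mitotic cyclin, had the highest replicate 1 value of the 10 genes, 156.7, with 14.1 in replicate 2. The summit lay 79 bp before the start site, in a stretch that is also the promoter of *stl*, so the peak cannot be given to either gene. No FruCOM peak lay in the *CycB* window in either replicate, nor any Trl or Caf-1 peak. Su(z)12 was the other factor there, at 6.06 and 4.92. *CycB* and *fzr* were the genes with a strong FruC::Myc region that FruCOM did not overlap, since the *fzr* intron region also lacked it.

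*CycD*, the G1 cyclin gene tied to growth, had weaker peaks. The promoter peak, 40 bp before the start site, had 54.1 and 6.31. FruCOM and Su(z)12 were highest at another place, about 2.3 kb upstream and nearest to *Lrp4*, with 10.5 and 5.93 for FruCOM and 12.3 and 9.02 for Su(z)12. FruC::Myc had 18.7 and 3.25 there.

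*Cdk1*, the gene of the mitotic kinase, had the lowest values. Its 5 replicate 1 peaks ran from 12.4 to 23.3, the highest of them nearest to *da*, and the promoter peak had 15.5. There was no peak at *Cdk1* in replicate 2 or in any list of another factor. In replicate 1, 43.3% of all genes had a lower highest value than *Cdk1*, whereas at the other members this share ran from 66.4% at *CycD* to 96.0% at *CycB*.

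*stg*, whose phosphatase triggers mitosis, was marked over several stretches. The highest FruC::Myc peak lay upstream, with its summit 2171 bp before the start in replicate 1 (106.1) and 2372 bp before it in replicate 2 (13.5), nearest to the start site of *CG45544*. Su(z)12 (4.45 and 4.77) and Trl (2.84 and 4.27) had their *stg* peaks in the same region. The promoter peak had 95.2 and 8.84. FruCOM was highest elsewhere, just past the 3′ end of the gene and nearest to *SP1029*, at 20.2 and 16.1, where FruC::Myc had 36.5 in replicate 1 and no peak in replicate 2. The antibodies to Fru thus ranked the *stg* regions differently in both of their replicates.

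*dap* carried peaks in 2 main places. Dacapo is the fly member of the p21 and p27 family of inhibitors. At the promoter, 76 bp before its one start site, FruC::Myc had 126.5 and 23.8 and FruCOM 8.27 and 8.46. The same region held Caf-1 at 6.52 and 7.13, Trl at 7.60 in replicate 1 alone and Su(z)12 at 9.90 in replicate 2 alone. The intron region about 2 kb past the start had FruC::Myc at 93.0 and 15.9, and held FruCOM and Su(z)12 peaks in both replicates. A further promoter peak, 628 bp before the start, had 50.3 in replicate 1 alone.

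Set against the 5 regulated genes, *dap* fell inside their range for FruC::Myc. In replicate 1 its 126.5 had rank 3 of 6, against 54.1 to 156.7 with a median of 111.0. In replicate 2 its 23.8 had rank 2 of 6, against 6.31 to 27.3 with a median of 14.1. The highest fold enrichment at *dap* was 10.8 and 11.0, against 7.46 to 14.6 and 6.12 to 12.0 at the regulated genes. With FruCOM *dap* had 8.62 and 8.46, ranks 4 and 3 of 6. Taking the higher replicate for each gene, *dap* lay 15.5 above the median of the 5 genes with FruC::Myc and below it with FruCOM (a difference of -1.93). *dap* was the highest of the 6 in 1 replicate each of Caf-1 (7.13 against 3.62 or less), Su(z)12 (9.90 against 9.02 or less) and Trl (7.60 against 6.37 or less), and had rank 4 in the other replicate of each. By highest −log10 Q-value, no factor placed *dap* outside the regulated genes in both replicates.

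Over the 12 factor lists, the Euclidean distance of log10(1 + highest −log10 Q-value) from *dap* was 0.727 to *stg*, 1.00 to *CycE*, 1.09 to *CycA*, 1.84 to *CycD* and 2.21 to *CycB*. *dap* was thus near to some of the regulated genes and far from *CycB*, which had no FruCOM, Trl or Caf-1 peak.

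**Figure D3:**
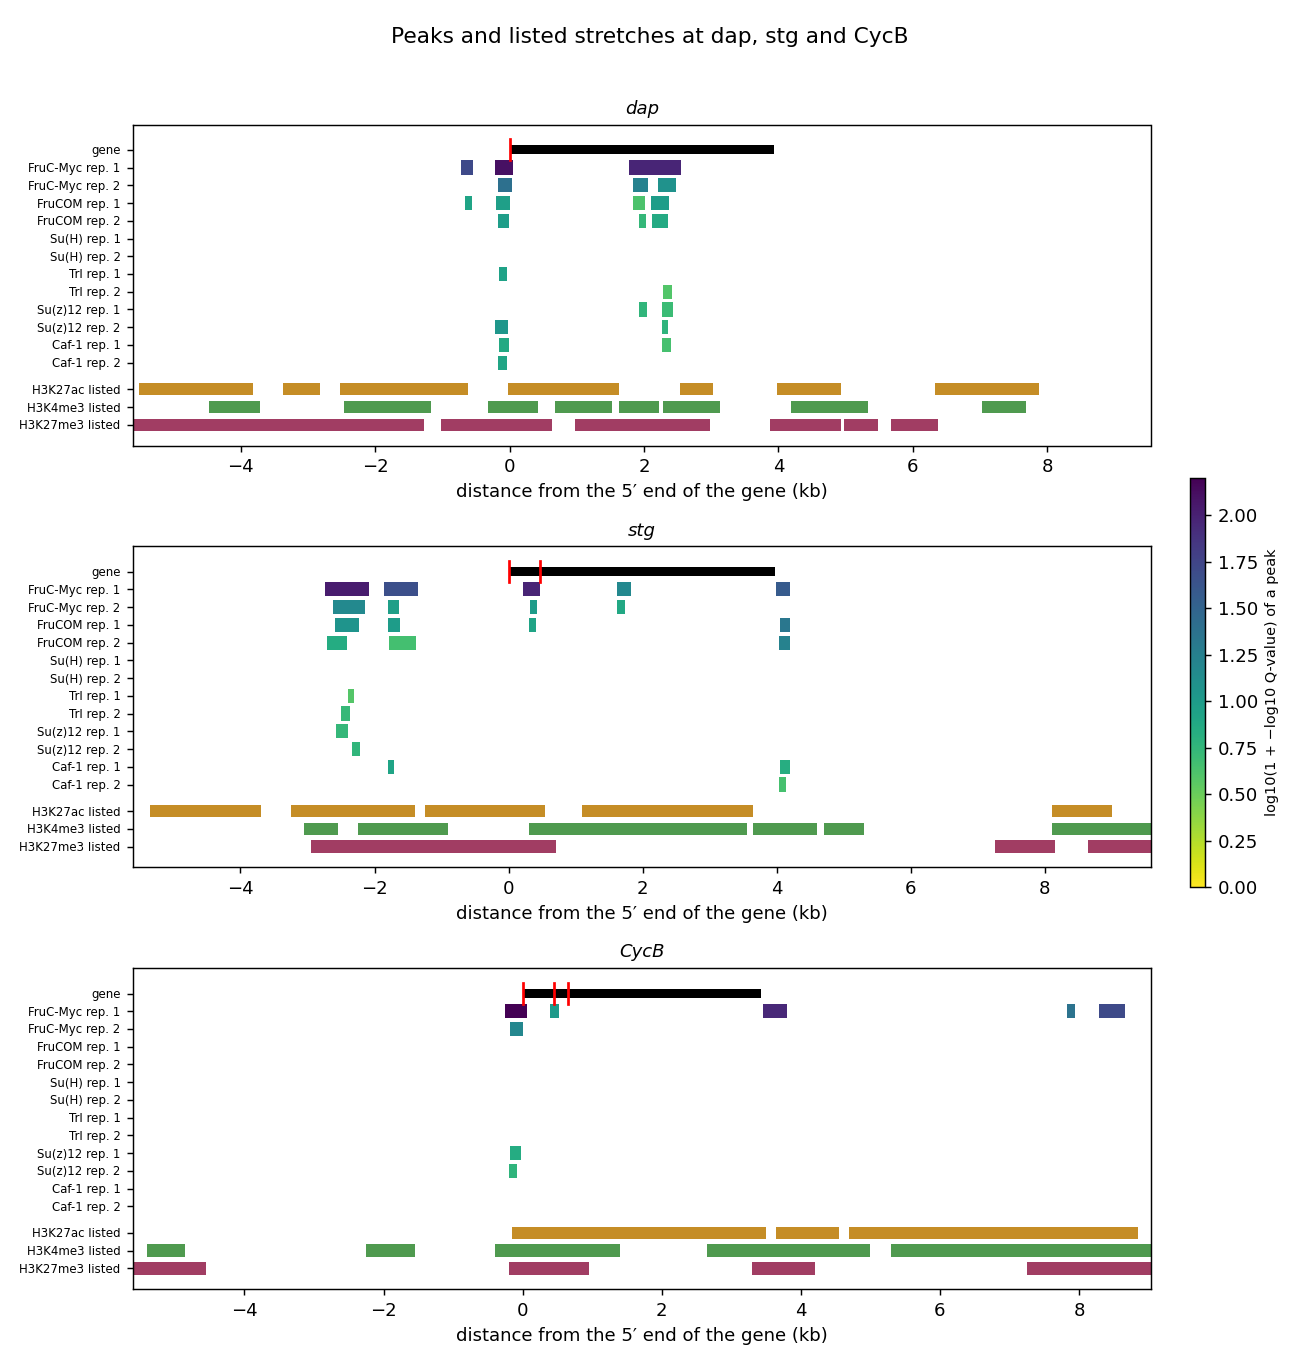
Peaks of the 12 factor lists (bars coloured by log10(1 + −log10 Q-value)) and stretches listed for 3 histone marks at *dap*, *stg* and *CycB*, by distance in kb from the 5′ end of the gene, with the gene in black and its start sites in red. At *dap* the promoter and the intron 2 kb past the start hold most peaks, and H3K27me3 stretches cover 69.1% of the window.

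The map of *dap*, *stg* and *CycB* shows these places side by side: at *dap* the factors overlap at the promoter and intron, at *stg* they are spread from upstream to past the 3′ end, and at *CycB* they meet at the shared promoter.

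*fzr*, whose product starts the destruction of mitotic cyclins as cells leave the cycle, had its highest peak at the edge of its window. The summit lay 5093 bp before the start in replicate 1 (149.5) and 4934 bp before it in replicate 2 (30.5), nearest to *Pp2C1*. FruCOM (13.3 and 10.0), Su(z)12 (8.81 and 8.08) and Caf-1 (10.9 and 12.3) were highest at that region too, and Trl had a peak there in replicate 2 (7.50). Within the gene, the intron region 523 bp past the start had 102.9 and 10.8 and no peak of any other factor, and the promoter peak had 60.8 and 9.39. The highest *fzr* values of FruC::Myc, FruCOM, Su(z)12, Caf-1 and Trl therefore come from a region nearer to another gene.

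*E2f1* was the member with most peaks and the one with Su(H). E2f1 is the activating E2F of the fly. Su(H) peaks lay in its window in both replicates (4.84 and 8.10), where 1.6% of all genes had one in each replicate and 3.62% in either. Both summits lay at an internal promoter 22.1 kb into the gene, within the *E2f1* sequence shown above, 5 bp and 14 bp from the FruC::Myc summit of replicate 1. FruC::Myc had 103.6 and 29.9 there, FruCOM 25.3 and 19.4, Su(z)12 10.2 and 8.78, and Caf-1 9.36 and 8.46. Neither Su(H) value exceeded 10. The word GTGGGAA, which Su(H) binds, was in neither strand of the 101 bases at either Su(H) summit. The highest FruC::Myc replicate 1 value of the window, 103.8, lay past the 3′ end, nearest to the insulin receptor gene *InR*. The neighbouring region at the *InR* promoter held Su(z)12 at 27.8 and 13.9, the highest Su(z)12 values of the 10 windows, FruCOM at 27.1 and 14.6, and Caf-1 at 8.74 and 10.3.

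*Myc* passed the threshold of 100 in neither replicate but had the highest Caf-1 values of the 10 genes. The upstream region, about 3.6 kb before the start site, had Caf-1 at 22.5 and 12.7, where 99.0% and 97.9% of all genes had a lower highest value. FruCOM had 25.3 and 15.7 there, FruC::Myc 87.6 and 9.64, Su(z)12 4.16 and 8.04, and Trl 4.34 in replicate 1 alone. The promoter peak had FruC::Myc at 49.9 and 6.27 and FruCOM at 11.9 and 8.04. The highest replicate 2 value of FruC::Myc, 10.8, lay in the intron 9.0 kb past the start.

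**Figure D4:**
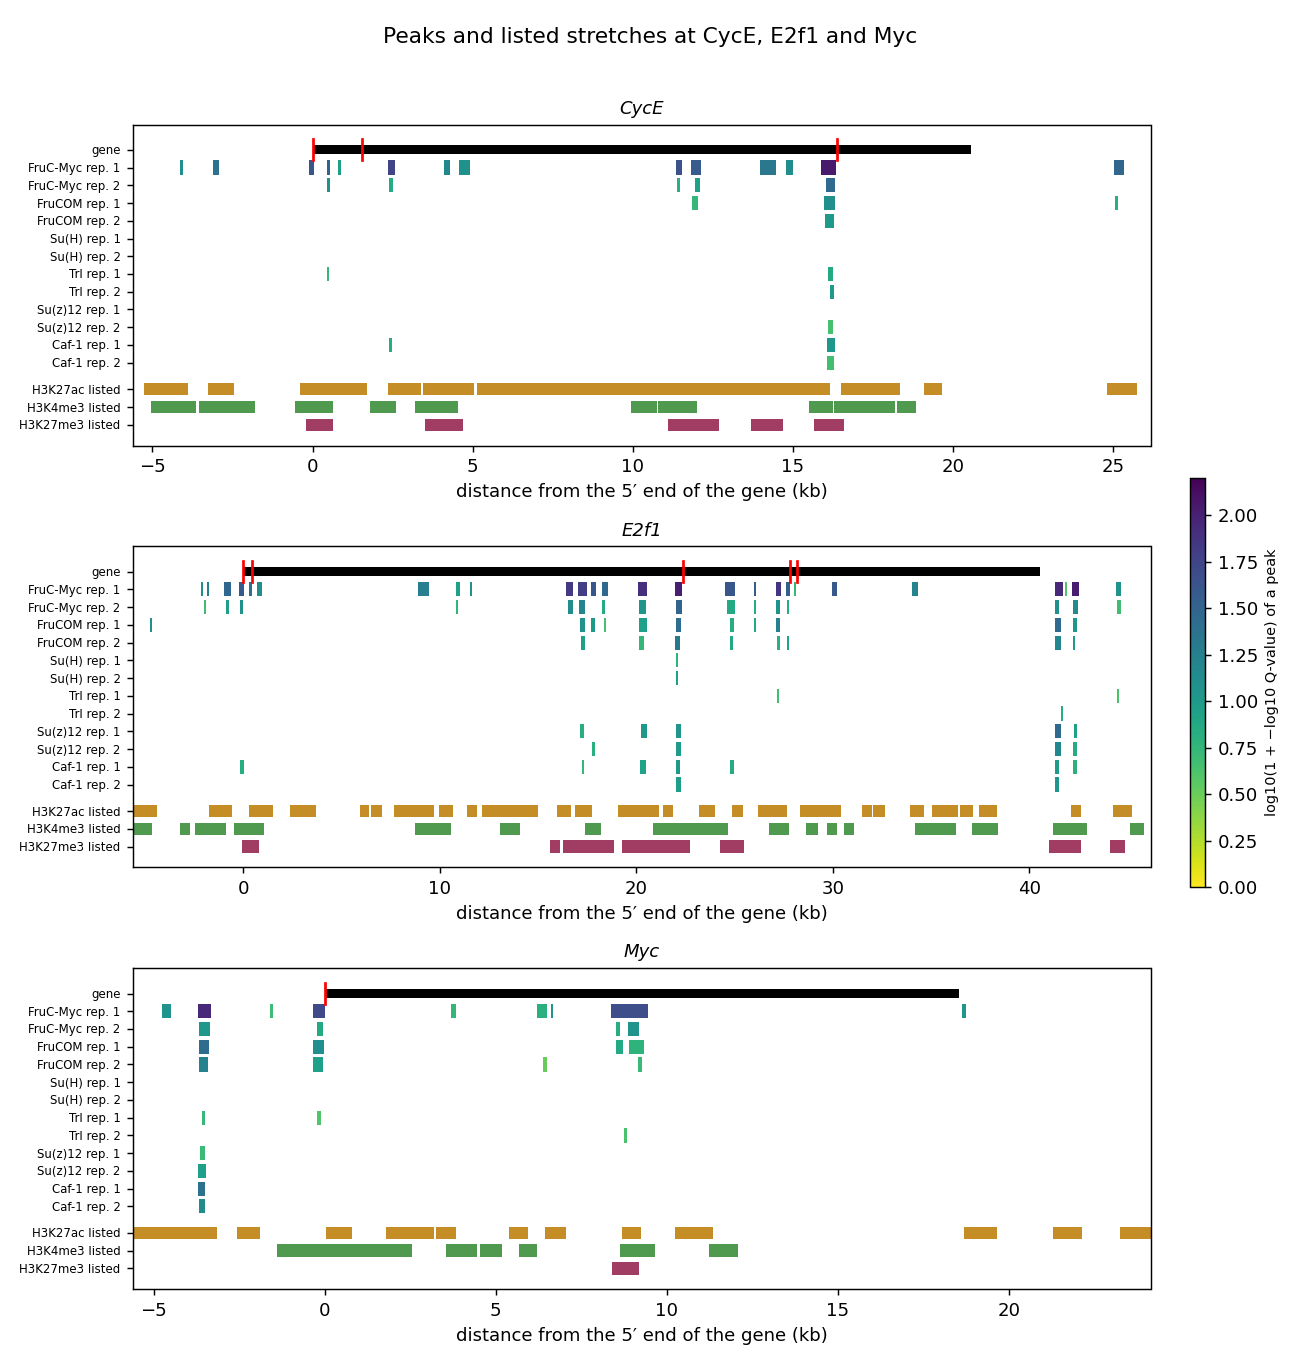
Peaks of the 12 factor lists and stretches listed for 3 histone marks at *CycE*, *E2f1* and *Myc*, drawn by distance in kb from the 5′ end of the gene, with the gene in black and its start sites in red. Peaks of several antibodies overlap at internal start sites 16.2 kb into *CycE* and 22.1 kb into *E2f1*, past the 3′ end of *E2f1* near *InR*, and about 3.6 kb upstream of *Myc*.

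In the map of the 3 long genes the columns of stacked bars mark places where several antibodies coincide, among them an internal start site in *CycE* and in *E2f1*, the stretch past the 3′ end of *E2f1* at and near the *InR* promoter, and the region upstream of *Myc*.

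Counted by gene, FruCOM peaks in each replicate lay at 8 of 10 members (19.2% of all genes), the exceptions being *CycB* and *Cdk1*. Su(z)12 had peaks in each replicate at 8 members (17.9% of all genes), *CycE* having one in replicate 2 alone. Caf-1 had them at 6 (12.6%), *CycE*, *stg*, *dap*, *fzr*, *E2f1* and *Myc*. Trl had them at 6 (7.56%), *CycE*, *CycA*, *stg*, *dap*, *E2f1* and *Myc*, although at *dap*, *E2f1* and *Myc* the Trl peaks of the replicates lay at different places. A peak in either replicate lay at 8 members for FruCOM (31.1% of all genes), 9 for Su(z)12 (33.1%), 7 for Caf-1 (28.1%) and 7 for Trl (17.2%). These shares sit beside the density of peaks, which was 3.13 to 5.49 times that of all gene windows in the FruCOM, Trl, Su(z)12 and Caf-1 lists. H3K9me3 went the other way, with 0.513 peaks per 10 kb against 0.944, and none of its peaks at the members exceeded 9.99. It was listed at 6 members, against 30.8% of all genes.

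Region by region, the 9 strong FruC::Myc regions at the members were set beside all strong regions. FruCOM overlapped 7 of 9 in one replicate or the other (77.8%, 95% Wilson interval 45.3 to 93.7) against 90.8% of all 1221, and Su(H) 1 of 9 (11.1%, 1.99 to 43.5) against 26.9%. Su(z)12 overlapped 8 of 9 (88.9%, 56.5 to 98.0) against 87.2%, Caf-1 6 of 9 (66.7%, 35.4 to 87.9) against 81.3%, and Trl 4 of 9 (44.4%, 18.9 to 73.3) against 56.5%. 4 of 9 lay at a promoter of any protein-coding gene, from 1000 bp before to 100 bp after a start site, against 46.8% of all. The intervals cover counting error only, and with 9 regions a difference from the genome was not detectable.

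GAGAG lay within 100 bp of the summit in 35 of the 76 member regions with a score above 100 (46.1%, 95% Wilson interval 35.3 to 57.2), on either strand, against 42.0% of 11321 such regions in the genome. It lay at 7 of the 9 strong regions (77.8%, 45.3 to 93.7) against 56.3% of 1214, a share inside that interval. Within 50 bp it lay at 5 of the 9 against 43.4%. GTGGGAA lay at 2 of the 76 (2.63%) against 2.92%. A match is only a description of the letters.

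For the 3 histone marks the deposited tables list stretches of chromatin from a comparison of *fruC*-null with control brains. A listed stretch draws on all 4 libraries of a mark. For each mark the total listed length is close to what the paper gives for regions with significant changes between the genotypes. Listing thus follows a called difference, and an unlisted place can still carry the mark. A listed share does not measure how much of a window carries the mark. Each stretch is used here only for its place and length, as neither a level nor a change, and it has no replicate error. All 10 members had a stretch of each mark, as had 88.4% (H3K27ac), 86.4% (H3K4me3) and 85.1% (H3K27me3) of all genes. Over a start site, H3K4me3, a mark of active promoters, was listed at all 10 (60.2% of all genes). H3K27ac, a mark of active promoters and enhancers, was listed there at 6 (47.5%), not at *CycA*, *CycD*, *Cdk1* or *Myc*. H3K27me3, the mark that Polycomb repressive complex 2 deposits, was listed there at 7 (33.0%), not at *CycD*, *Cdk1* or *Myc*. These 3 genes also had no FruC::Myc region with a −log10 Q-value above 100, though all 3 had one at a score above 100. The share of all genes that lack both is not given here, so no link is drawn.

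**Figure D5:**
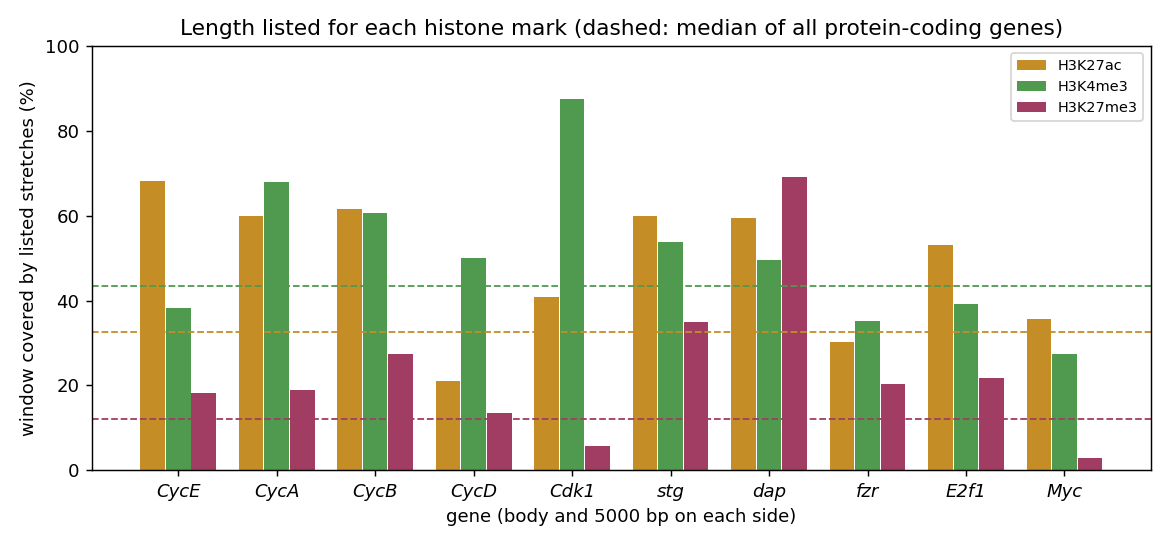
Share of each gene's window (body and 5000 bp on each side, in percent) covered by stretches listed for H3K27ac, H3K4me3 and H3K27me3. Dashed lines are the medians of all protein-coding genes (32.6%, 43.5% and 12.1%); *dap* has the longest H3K27me3 share, 69.1%, and *Cdk1* the longest H3K4me3 share, 87.4%.

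The plot of listed shares shows where *dap* differs from the regulated genes. H3K27me3 stretches covered 69.1% of the *dap* window, and 95.5% of all genes had a lower share. At the regulated genes the share was 34.9% at *stg*, 27.4% at *CycB*, 19.0% at *CycA*, 18.3% at *CycE* and 13.4% at *CycD*. Within the gene body it was 68.2% at *dap* and 0 to 32.5% at the regulated genes. *dap* thus lay above all 5, as a description of 1 gene against 5 with no replicate error. Part of the *dap* window is covered by a stretch of 14000 bp that starts beyond it and ends 1271 bp before the gene's start, and separate stretches of 1650 and 2000 bp covered the promoter and intron regions that FruC::Myc marks. For the other marks *dap* lay within the range of the regulated genes, at 59.4% against 21.0 to 68.1% for H3K27ac and 49.5% against 38.3 to 68.0% for H3K4me3.

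The remaining genes differed from these. *Cdk1* had the highest H3K4me3 share (87.4%) and a low H3K27me3 share (5.74%). *Myc* had the lowest H3K27me3 share (2.80%), a single stretch of 800 bp in the intron where FruC::Myc and FruCOM had peaks. *E2f1* had 21.8% and *fzr* 20.4%. All 9 strong FruC::Myc regions at the members overlapped a listed H3K27me3 stretch, against 81.7% of all 1221, and 42 of the 76 regions at the lower threshold did (55.3%), against 55.3% in the genome.

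Of 40 other cell cycle and growth genes, 39 were matched by symbol, and 11 of them (28.2%, against the 13.5% of all genes above) had a FruC::Myc region above 100. They were the cyclin and kinase genes *Cdk4*, *CycB3* and *CycG*, the E2F partner *Dp* and the retinoblastoma gene *Rbf*, the replication origin gene *Orc1*, *ago*, which encodes a Cyclin E ubiquitin ligase subunit, the Myc antagonist *Mnt*, and *InR*, *chico* and *Akt* of insulin signalling. The highest values were 195.3 and 43.9 at *InR*, 185.4 and 28.8 at *Dp*, and 185.1 at *Orc1*, which had no peak in replicate 2. The *InR* window and the *E2f1* window overlap. A FruC::Myc peak in each replicate lay at 23 of the 39, against 39.6% of all genes, and Su(H) peaks in each replicate lay at 0.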

How the data were processed

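CUT&RUN data from control and *fruC*-null *brat*-null larval brains were taken as deposited. Reads had been trimmed (cutadapt) and aligned to BDGP6 (bowtie2) by the authors, short fragments had been kept for factors, and MACS2 had been run on every replicate separately. Each list deposited by the authors holds, per peak, a score and a fold enrichment, with −log10 P-values and −log10 Q-values. H3K9me3 was 1 list, and whether its replicates were pooled is not given in the sources used here. The histone mark tables came from diffReps (500 bp window), and the position and length of each deposited stretch were used here. Their log2 fold changes, adjusted p-values, directions and gene annotations compare *fruC*-null with control and were not used. The tables hold no value per sample and no list holds a read total, so the depth behind each value is unknown. IgG, signal tracks and the ENCODE blacklist were not used here.

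FruC::Myc peaks with a −log10 Q-value above 100, or a score above 100, were merged over the replicates, and regions overlapping H3K9me3 peaks above 100, merged within 3000 bp, were removed. Genes came from Ensembl release 115 on the same assembly. Overlap required 1 bp. Shares carry 95% Wilson intervals, for counting error only. Merging and overlap were tested on 5000 simulated regions against bedtools 2.31.1. Python 3.11.15, numpy 2.4.6, pandas 2.3.3, scipy 1.17.1 and matplotlib 3.10.9 were used.

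All 10 members were named, each with its highest FruC::Myc peak. Promoter peaks and the highest peaks of the other factors are given for many of the genes but not for all. Other cell cycle genes were named only where a region exceeded 100. The members, lists, thresholds and alternatives were chosen with earlier results of these data known. Alternatives were other thresholds, each replicate left out, a peak in both replicates, FruCOM in place of the Myc antibody, other flanks, promoters alone, nearest start sites, H3K9me3 regions kept, longer stretches and other word settings.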

Additional observations from a re-analysis of the deposited data

How the results depend on the processing

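Of 84 recomputed values, 54 stayed within the tolerance set for them, 29 moved beyond it and 1 changed sign. The tolerance was 1.5 times for counts, the 95% Wilson interval for shares and the spread between replicates for the difference at *dap*. The interval of a listed share counts each base as 1 draw and is narrow, so shifts of a few percent pass it. The count of genes with a FruC::Myc region above 100 (7) and of such regions (9) fell to 0 genes and 0 regions at a −log10 Q-value above 200, and to 0 and 0 with FruCOM. Leaving out a replicate gave 0 to 7 genes and 0 to 9 regions, 0 in each case without replicate 1. Regions numbered 25 above 50 and 76 at a score above 100. With a −log10 Q-value above 10, genes with a peak numbered 0 for Su(H), 1 for Trl, 2 for Su(z)12 and 3 for Caf-1. With promoters alone they numbered 4 for Trl, 5 for Su(z)12 and 4 for Caf-1, and with gene bodies alone 5 for Su(z)12.

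The share of the windows listed for H3K27ac (49.9%) was 55.9% without flanks, 41.6% with 10000 bp and 34.8% with stretches of 1000 bp or more. For H3K4me3 (45.5%) it was 43.2%, 40.8% and 36.0%, and for H3K27me3 (21.3%) 20.0%, 23.3% and 15.9%. The difference of *dap* from the median of the cyclin genes and *stg* (15.5) ranged from 9.71 to 15.5 with a replicate left out and was -1.93 with FruCOM, where it changed sign. The share of summits with GAGAG (46.1%) was 32.9% within 50 bp, 17.1% for GAGAGAG and 77.8% above a −log10 Q-value of 100. The cause of these shifts was not tested, beyond stricter settings keeping fewer peaks.

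No paired analysis was possible because no result comes from a test over samples: the lists give peaks, not counts, and the tables hold no value per sample. A comparison of the authors' group means of each mark was not run, since the tables hold no such means. Depth is unknown, and a gene without a peak in a list is not shown to lack the factor.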
